A study of Mus musculus with 3 samples.

Results

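Accessible chromatin regions that were called in SOX2-OFF cells and in caudal epiblast-like cells (CEpiLCs), but not in SOX2-ON cells, are described here. They were chosen by peak presence alone: the broad ATAC-seq peaks of 3 samples were merged, without a gap, on the 16 autosomes other than 6, 8 and 11, and a merged region was kept if it held a SOX2-OFF and a CEpiLC peak and no SOX2-ON peak. This gave 12480 members of 144115 merged regions, or 8.66%, a share that the rule itself fixes. ATAC-seq marks open DNA through the insertions of a transposase. The samples were mouse ES cells of the HM1 line, strain 129, taken at 72 h of differentiation, 1 sample per group. All received 10 ng/ml bFGF and 5 µM LGK974, an inhibitor of WNT secretion, and, over the last day, the WNT pathway activator CHIR99021. SOX2-ON and SOX2-OFF both came from 1 Sox2-/- line, Sox2 TetON, which carries a doxycycline-inducible Sox2 transgene at the Hprt locus and rtTA at Rosa26. Doxycycline at 1 µg/ml was maintained in SOX2-ON and withdrawn in SOX2-OFF. CEpiLC was wild-type HM1, with its own Sox2 and no doxycycline. SOX2 itself is not measured by these files. Engineered line and genotype therefore cannot be told apart from SOX2 level where CEpiLC is compared with the other groups, while SOX2-ON and SOX2-OFF differ in doxycycline.

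In the gastrulating embryo, WNT and FGF signals drive epiblast cells into the primitive streak, where T (Brachyury), a T-box factor, and later Tbx6 and Msgn1 specify paraxial mesoderm. WNT signals reach DNA through β-catenin bound to TCF/LEF proteins, which recognise CTTTGA followed by A or T. SOX2 is an HMG-box factor that binds ACAATGG-like sites, maintains pluripotent and neural states and opposes mesoderm formation. CEpiLCs model the caudal epiblast, which feeds both spinal cord and trunk mesoderm.

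The sequences shown first are those in which such letters fell at members within 50 kb of mesoderm genes. Bases are from the RefSeq GRCm38.p6 reference (mm10, C57BL/6J, whereas the cells are strain 129), plus strand, 5′ to 3′. Capitals mark matches, on either strand, to the T-box letters AGGTGTNA, the TCF/LEF letters CTTTGAA or CTTTGAT, the CDX/HOX letters TTTATNG, the GATA letters AGATAA or TGATAA, and the FOXH1 letters AATCCACA or AATACACA. At T and Tbx6, 30 bases around each T-box match are given because these members overlap untranslated regions. For the member near T these belong to the neighbouring gene T2, and for the other to Tbx6 itself. The T stretches lie at chr17:8396955-8396984 and chr17:8397006-8397035, upstream of T, and the Tbx6 stretch at chr7:126785296-126785325, where it overlaps an untranslated region of the gene.
T, first match: gttttgattagAGGTGTGAtttggagattc
T, second match: gatgctgaatgAGGTGTAActgccaagaca
Tbx6: caccctttagtTCACACCTtgatttcactc

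For other members the central 200 bp of the stretch covered by both peaks are printed. They are the best-ranked member near Fgf8 (chr19:45735323-45735522), a streak FGF ligand, in an intron of Epha4 (chr1:77422794-77422993), an ephrin receptor of the somite boundary, 18.2 kb upstream of Rspo3 (chr10:29554360-29554559), a secreted WNT amplifier, and in an intron of Lin9, 44.8 kb downstream of Mixl1 (chr1:180647874-180648073), a streak homeobox gene. The Rspo3 window held 3 GATA matches and the others 1 or 2 matches each. The corresponding windows at Mesp1, Sp5, Snai1 and Lefty2 held none of these letters and are not shown.
Fgf8: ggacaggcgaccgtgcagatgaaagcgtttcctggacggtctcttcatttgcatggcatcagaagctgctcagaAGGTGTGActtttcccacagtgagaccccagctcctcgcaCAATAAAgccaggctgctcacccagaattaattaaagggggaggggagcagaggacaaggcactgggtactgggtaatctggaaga
Epha4: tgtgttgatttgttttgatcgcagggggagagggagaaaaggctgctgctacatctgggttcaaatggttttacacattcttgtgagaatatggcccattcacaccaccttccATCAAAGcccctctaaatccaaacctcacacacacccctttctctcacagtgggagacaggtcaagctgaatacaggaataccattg
Rspo3: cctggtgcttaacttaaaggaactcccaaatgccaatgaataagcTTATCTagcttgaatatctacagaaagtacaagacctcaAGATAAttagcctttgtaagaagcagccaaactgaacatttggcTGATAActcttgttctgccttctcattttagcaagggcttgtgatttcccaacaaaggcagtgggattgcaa
Mixl1: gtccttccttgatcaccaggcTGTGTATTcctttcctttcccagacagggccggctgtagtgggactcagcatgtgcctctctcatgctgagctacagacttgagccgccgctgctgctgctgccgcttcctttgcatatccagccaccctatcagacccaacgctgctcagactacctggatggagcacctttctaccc

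A second set was chosen after its values were seen, to show the letters at the strongest members. Cblb (chr16:52148119-52148318) holds the only strong member with both T-box and TCF/LEF letters in its window. The windows 1.00 kb from Rhob (chr12:8496357-8496556), 588 kb from Lcorl, the nearest coding gene (chr5:46445717-46445916), and in introns of Tln2 (chr9:67511394-67511593) and Cpa6 (chr1:10594678-10594877) each hold 2 TCF/LEF matches.
Cblb: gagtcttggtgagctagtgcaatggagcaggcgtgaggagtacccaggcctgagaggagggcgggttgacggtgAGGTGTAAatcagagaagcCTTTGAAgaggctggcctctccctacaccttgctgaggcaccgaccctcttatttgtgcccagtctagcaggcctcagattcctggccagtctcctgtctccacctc
Rhob: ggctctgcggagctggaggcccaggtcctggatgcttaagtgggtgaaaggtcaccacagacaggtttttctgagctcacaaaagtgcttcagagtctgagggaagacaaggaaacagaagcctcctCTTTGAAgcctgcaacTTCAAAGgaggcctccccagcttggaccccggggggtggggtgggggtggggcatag
Lcorl: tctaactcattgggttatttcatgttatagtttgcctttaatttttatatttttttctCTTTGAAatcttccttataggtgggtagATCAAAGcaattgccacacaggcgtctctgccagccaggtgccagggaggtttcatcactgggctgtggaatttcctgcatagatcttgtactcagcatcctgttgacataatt
Tln2: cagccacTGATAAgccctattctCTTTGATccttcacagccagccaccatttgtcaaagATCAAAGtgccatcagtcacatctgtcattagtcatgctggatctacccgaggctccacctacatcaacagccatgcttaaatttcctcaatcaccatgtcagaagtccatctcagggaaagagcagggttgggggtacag
Cpa6: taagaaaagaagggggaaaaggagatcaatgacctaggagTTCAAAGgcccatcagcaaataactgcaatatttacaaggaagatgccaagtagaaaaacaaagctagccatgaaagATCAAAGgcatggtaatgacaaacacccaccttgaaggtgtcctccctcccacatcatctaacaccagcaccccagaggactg

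Most members were weak peaks in both samples that held them. The deposited fold enrichment, the height of a peak over the local background of its own library, had a median of 1.56 in SOX2-OFF (quartiles 1.49 and 1.69) and 1.70 in CEpiLC (1.64 and 1.79). In regions held by all 3 lists the medians were 1.98 and 1.94. The other pair classes were weak too, with medians of 1.58 in SOX2-OFF where CEpiLC lacked the region and 1.67 in CEpiLC where SOX2-OFF did. The −log10 q of members reached down to 1.00 in SOX2-OFF and 1.05 in CEpiLC, at the end of the deposited lists. It was 2 or more in both samples for 4230 members (33.9%) and under 2 in at least 1 sample for the other 8250 (66.1%). Just outside the rule, 2712 regions held by all 3 lists (6.03%) had a SOX2-ON peak with a −log10 q under 1.5, and 1442 (3.21%) had a SOX2-ON peak that touched no base shared by the SOX2-OFF and CEpiLC peaks. Members and the first of these sets thus lie on either side of the limit at which a weak SOX2-ON peak was listed.

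The peaks behind a member mostly covered the same DNA. In 12231 members (98.0%) each list held a single peak, and the SOX2-OFF and CEpiLC peaks overlapped by 50% or more of the shorter one in 11166 (89.5%). The median overlap was 307 bp, and in 1 member the peaks touched without sharing a base. The ranks of the members in the SOX2-OFF and CEpiLC lists had a Spearman correlation of 0.44 over 12480 members. It was 0.88 over the 44977 regions held by all 3 lists, a description across regions that share 2 libraries. The values cover unlike ranges of rank, since 190 members and 16649 shared regions ranked within 20000 in both lists. Regions of like strength were not compared. Of the members 50.4% had the lower rank number in SOX2-OFF. Ranks in lists of unlike length (86563 peaks in SOX2-OFF and 95025 in CEpiLC) are not on a common scale.

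The share of regions missing from SOX2-ON depended on strength. The joint rank of a region is the worse of its ranks by −log10 p in the 2 lists that hold it. Of the regions held by SOX2-OFF and CEpiLC, none of the 4233 with a joint rank within 5000 was missing from SOX2-ON, and 5 of 4710 between 5000 and 10000. The share was 2.34% (2.03 to 2.70, Wilson 95% interval, counting error only) between 10000 and 20000 and 48.5% (47.1 to 49.8) between 70000 and 80000. Within 20000 it was 190 of 16839, or 1.13% (0.980 to 1.30). With all chromosomes ranked together it was 0.384% (0.302 to 0.488). The lists are then longer, at 129843 to 131520 peaks against 85388 to 95025, so the same rank is a stricter limit. Whether the added chromosomes themselves change the share was not tested. The other pairs of lists gave 195 of 15405 regions missing from CEpiLC, or 1.27% (1.101 to 1.45), and 22 of 14638 missing from SOX2-OFF, or 0.150% (0.0993 to 0.227). At that strength members were thus about as frequent as regions that CEpiLC lacked. They were more frequent than regions that SOX2-OFF lacked, with intervals that do not overlap. Away from starts, the central 200 bp were mostly repeat in 161 of 184 regions that CEpiLC lacked (87.5%), against 32 of 171 members (18.7%). The near-equal shares thus set unlike kinds of region side by side. With 1 library per group, a region missing from a list and a region too weak to be called at that library's depth cannot be told apart, and read depth is not given by these files.

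**Figure D1:**
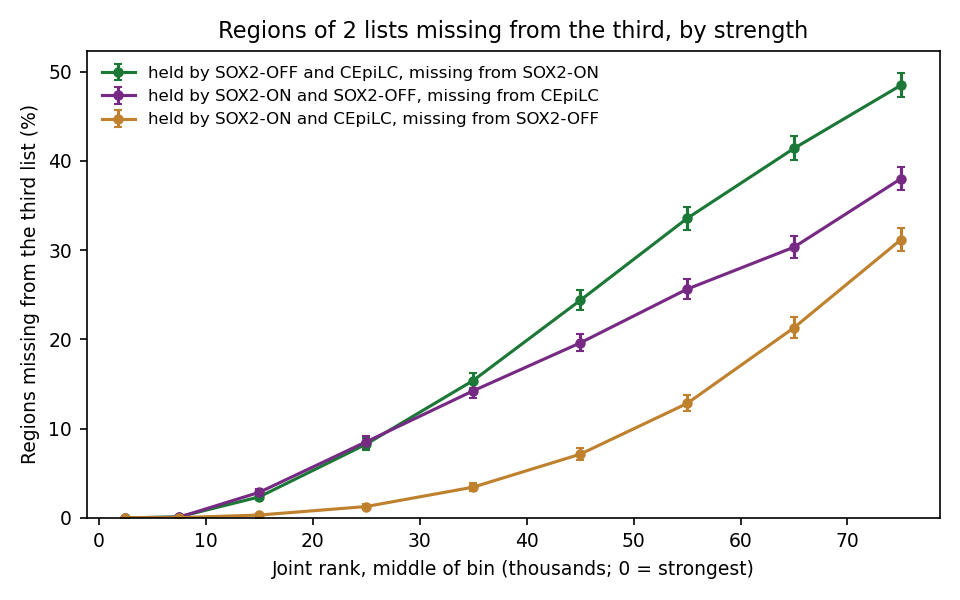
Share of regions held by 2 lists that the remaining list lacks (%, y axis) against joint rank (x axis, middle of each bin), with Wilson 95% intervals. Regions missing from SOX2-ON start at 0 of 4233, pass 2.34% and reach 48.5%, and lie above the other pairs beyond rank 40000.

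The 190 members with a joint rank within 20000, 1.52% of all, are called strong members below. Their fold enrichment ran from 1.66 to 4.19 in SOX2-OFF, with a median of 2.53, and from 1.78 to 3.36 in CEpiLC, with a median of 2.31. It was higher in SOX2-OFF in 142 of them. Fold values of different libraries are not on a common scale, so this is a description. The strongest, on chromosome 2 in an intron of the non-coding gene Gm14223, had a fold enrichment of 4.19 in SOX2-OFF and 3.14 in CEpiLC and lay 24.2 kb from the nearest SOX2-ON peak. Another lay in an intron of Appl1, an endosomal adaptor, with 3.65 and 3.02, 37.1 kb upstream of Hesx1, an anterior neural homeobox gene. Both lay over 10 kb from SOX2-ON peaks.

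Further members among the first 10 lay in genes of varied function or far from any. One covered a start of the non-coding gene Gm6471, 60.9 kb downstream of Th, the tyrosine hydroxylase gene (fold 3.61 and 3.06). A further one lay 18.3 kb upstream of Loxl4, a lysyl oxidase (2.87 and 2.73), and another 5.97 kb downstream of Sox4, a SOX factor of progenitor cells (2.98 and 2.62). Members followed in introns of Usp29, an imprinted ubiquitin protease (3.95 and 2.68), and Lclat1, a phospholipid acyltransferase (3.61 and 2.73). The last ones lay in the non-coding gene Gm11867, 65.6 kb from Cnbd1 (3.29 and 2.73), and 588 kb upstream of Lcorl (3.10 and 2.52).

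**Figure D2:**
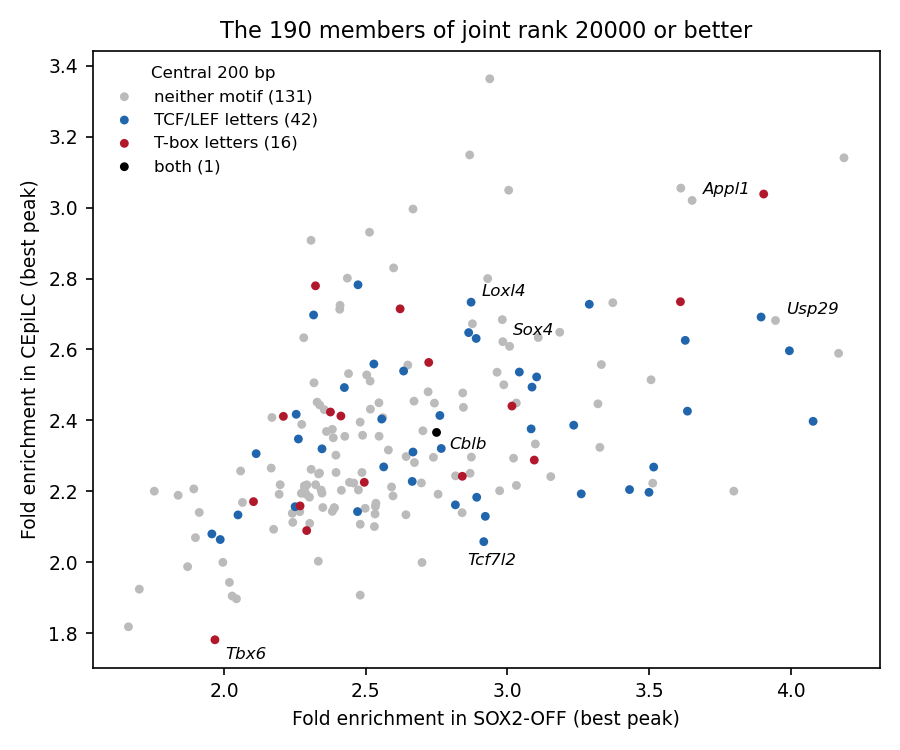
Fold enrichment of the 190 strong members in SOX2-OFF (x axis) and CEpiLC (y axis), each point the best peak of a member in that list, coloured by letters found in the central 200 bp. Of these, 42 hold TCF/LEF letters alone, 16 T-box letters alone, 1 (in Cblb) both and 131 neither, and 142 of the 190 have the higher fold in SOX2-OFF.

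Members lay mostly away from transcription starts. Of 12480, 1508 (12.1%, 11.5 to 12.7) lay within 1 kb of a GENCODE M21 start, 10.9% over other exons, 38.2% in introns and 38.8% between genes. Of regions held by all 3 lists, 37.6% (37.1 to 38.0) lay at starts, and 19.2% (18.6 to 19.7) after weighting to the members' GC content and joint rank. The 2 classes missing from another single list were near the members, at 11.1% (10.5 to 11.8) where CEpiLC lacked the region and 13.2% (12.4 to 14.2) where SOX2-OFF did, and at 11.75% (11.02 to 12.5) and 11.9% (11.01 to 12.9) once weighted. Beyond counting error the weighted promoter share of members was lower than that of shared regions, while its interval overlapped those of both other pair classes. The median distance from a start was 9.26 kb for members and 13.3 kb for strong members, against 3.92 kb for shared regions. It was 10.4 kb for regions missing from CEpiLC alone and 8.42 kb for those missing from SOX2-OFF alone. Of the strong members 10.0% lay at starts, 83 lay in a coding gene and 46 over 100 kb from one.

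**Figure D3:**
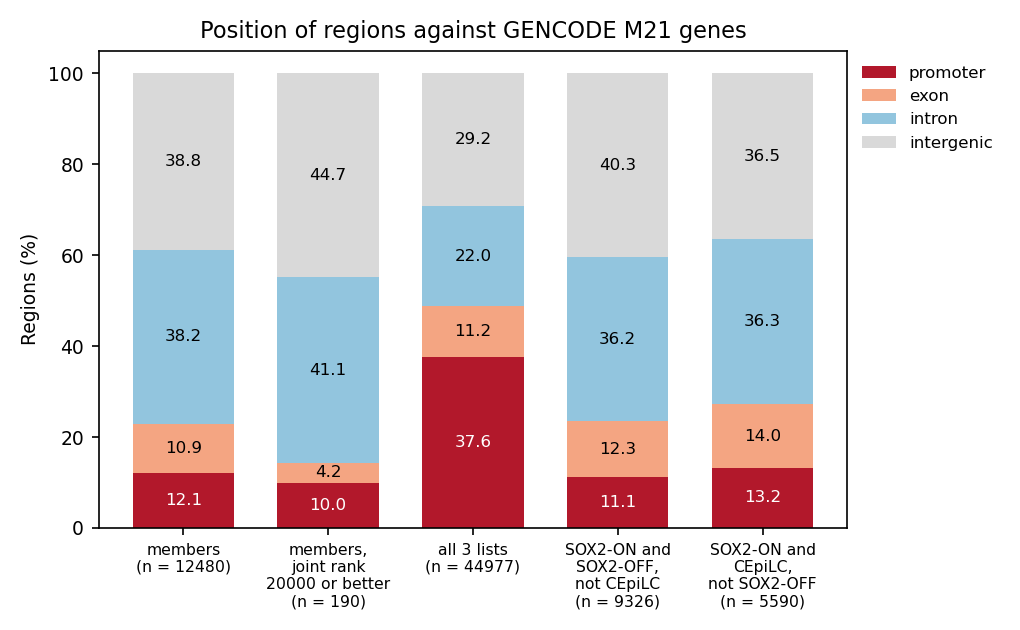
Share of regions (%, y axis) at promoters (within 1 kb of a start), over exons, in introns and between genes, for members, strong members and the 3 other classes held by at least 2 lists (x axis). Promoters make up 12.1% of members and 37.6% of regions held by all 3 lists.

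Distance from the list that lacks a region follows in part from the rule. The nearest SOX2-ON peak was at a median of 4.87 kb, 1092 members (8.75%, 8.27 to 9.26) had one within 1 kb, and 3550 (28.4%) had none within 10 kb. Regions missing from CEpiLC alone had a CEpiLC peak within 1 kb in 9.54% and none within 10 kb in 34.3%, and regions missing from SOX2-OFF alone had a SOX2-OFF peak within 1 kb in 12.95%. For strong members the median was 8.67 kb, 10 had one within 1 kb and 89 (46.8%, 39.9 to 53.9) had none within 10 kb. Members were 745 bp wide at the median and shared regions 1351 bp. Regions missing from CEpiLC alone (742.5 bp) and from SOX2-OFF alone (641 bp) were also narrow. More than 50% of the central window was repeat-masked in 10.9% of members, 8.13% of shared regions and 24.7% of regions missing from CEpiLC alone. By chromosome, members made up 7.25% (chromosome 19) to 9.87% (chromosome 3) of the merged regions. On the chromosomes outside the rule the same class made up 1.81% of regions on 6, 2.03% on 8 and 7.004% on 11.

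Letters read by TCF/LEF factors were more frequent in members the stronger they were. They were found in 1166 member windows, or 9.34% (8.84 to 9.87), against 7.60% of all regions, 6.62% of regions held by all 3 lists and 7.96% (7.56 to 8.37) of these after weighting. Among strong members 43 of 190 held them, or 22.6% (17.3 to 29.1). Over joint ranks between 20000 and 40000 the member share was 13.2% (11.7 to 15.0) against 7.99% (7.53 to 8.49) in shared regions, and beyond 80000 it was 6.72% against 7.05%. Strong members with TCF/LEF letters included 1 in an intron of Tcf7l2, itself a TCF gene, 1 at 506 kb downstream of Myc, 1 at 5.21 kb upstream of Sall3 and 1 at 1.00 kb downstream of Rhob. Of the 43, 13 lay in a coding gene and 18 over 100 kb from one. At least 2 matches fell in 8 strong members (4.21%, 2.15 to 8.09), against 0.689% of all members and 0.371% of shared regions of any rank. Shared regions of like rank or position were not compared for this. Weighted regions missing from CEpiLC alone held TCF/LEF letters in 8.35% (7.74 to 8.97). Those missing from SOX2-OFF alone held them in 8.11% (7.25 to 8.97). Both intervals overlap that of all members, so over all members these letters did not set them apart from either class.

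T-box letters showed the same order at a lower level. They were found in 494 members, or 3.96% (3.63 to 4.31), against 2.94% of all regions and 2.97% (2.72 to 3.22) of shared regions and 3.11% (2.73 to 3.50) of regions missing from CEpiLC after weighting. In strong members 17 of 190 held them, or 8.95% (5.66 to 13.9), against 1.60% (1.42 to 1.81) of shared regions of the same joint ranks. The 17 included the members at T and Tbx6 whose letters are printed above, and those in introns of Lclat1, Ssbp2, Lpp, Dapk1, Cblb and Pik3cd, and 11 of the 17 lay in a coding gene. In the T member the 2 matches pointed the same way. T-box and TCF/LEF letters fell together in 45 members, or 0.361% (0.270 to 0.482).

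The same letters read backwards give a measure of base composition. Reversed T-box letters were found in 4.00% of members and reversed TCF/LEF letters in 4.53%, so over all members the T-box letters were no more frequent than their reverse. In strong members the reversed shares were 3.16% (1.46 to 6.72) and 8.95%, below the 8.95% and 22.6% of the letters themselves, with overlapping intervals for the T-box. Shared regions of these ranks often lie at starts, so a comparison away from starts was added after seeing the data. There TCF/LEF letters were in 42 of 171 strong members (24.6%, 18.7 to 31.5) and in 380 of 4178 shared regions of joint rank between 10000 and 20000 (9.10%, 8.26 to 10.0). T-box letters were in 16 of 171 (9.36%, 5.84 to 14.7) and 117 of 4178 (2.80%, 2.34 to 3.35). Reversed TCF/LEF letters were also more frequent there, in 16 of 171 strong members (9.36%, 5.84 to 14.7) and 195 of 4178 shared regions (4.67%, 4.07 to 5.35). So were reversed FOX letters (CATTTGT), at 8.19% (4.94 to 13.3) and 3.95% (3.40 to 4.58). Reversed E-box letters (GTGGAC) were lower, at 2.34% (0.913 to 5.86) and 7.37% (6.62 to 8.20). Intervals thus lay apart for some reversed letters as well as for motifs. Of the 20 motifs, 5 had shares in strong members above those of shared regions with intervals that do not overlap. Beside TCF/LEF and T-box these were MEIS (TGACAG), at 22.8% (17.2 to 29.7) and 12.8% (11.8 to 13.9), GATA, at 19.9% (14.6 to 26.5) and 13.3% (12.3 to 14.3), and MESP (CATATG), at 5.85% (3.21 to 10.4) and 2.06% (1.67 to 2.54). CTCF alone was lower, at 0.585% (0.103 to 3.24) and 6.63% (5.91 to 7.42). With all windows, higher shares in strong members were thus not particular to TCF/LEF and T-box letters. Without windows that are mostly repeat the shares were 24.5% and 9.10% for TCF/LEF and 11.5% and 2.95% for T-box. Those intervals stayed apart. In this smaller set of 139 strong members the MEIS intervals overlapped, at 19.4% (13.707 to 26.8) and 12.6% (11.6 to 13.744). So did those of GATA, at 16.5% (11.3 to 23.6) and 12.6% (11.5 to 13.7). MESP intervals overlapped too, at 3.597% (1.55 to 8.14) and 1.92% (1.52 to 2.41). These shares were still the higher in strong members. Regions missing from CEpiLC alone give no useful comparison at this strength, since 161 of 184 of them (87.5%) were mostly repeat.

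**Figure D4:**
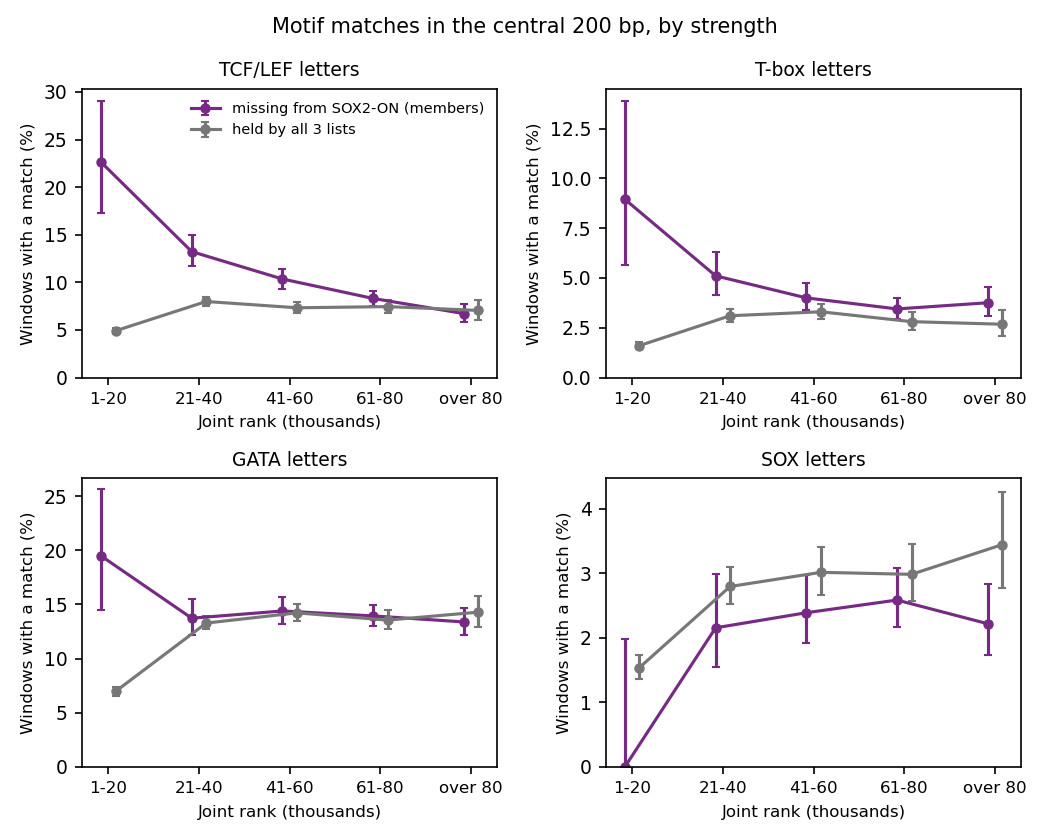
Share of central 200 bp windows with a match (%, y axis) by joint rank (x axis) for TCF/LEF, T-box, GATA and SOX letters, in members and in regions held by all 3 lists, with Wilson 95% intervals. TCF/LEF letters reach 22.6% and T-box letters 8.95% in the strongest members, while SOX letters are in 0 of 190.

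SOX letters went the other way. ACAATGG was found in 294 members, or 2.36% (2.10 to 2.64), against 3.38% of all regions, 3.16% (2.90 to 3.43) of shared regions after weighting, 3.80% (3.43 to 4.203) of regions missing from CEpiLC and 4.11% of those missing from SOX2-OFF. None of the 190 strong members held it, which allows a share of up to 1.58% by a limit of 3 counts (1.98% as the upper Wilson bound), and shared regions of these ranks held it in 1.54% (1.36 to 1.74). Away from starts it was in 0 of 171 strong members, which allows up to 1.75% by 3 counts and 2.20% by Wilson, and in 106 of 4178 shared regions (2.54%, 2.10 to 3.06), so whether the limits overlap depends on which is taken. CDX/HOX letters, read by caudal homeobox factors and held by 6.85% of all regions, were in 7.01% (6.58 to 7.47) of members against 6.88% (6.50 to 7.26) of weighted shared regions, and in 12 strong members (6.32%, 3.65 to 10.7).

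Of the other factors, ZIC letters (CAGCAGG) were in 12.6% (12.0 to 13.1) of members, against 9.93% of all regions and 10.4% (9.95 to 10.8) of weighted shared regions. MEIS letters (TGACAG) were in 17.3% (16.6 to 17.9) against 15.4% of all regions and 15.4% (14.9 to 15.97) of weighted shared regions. Homeobox letters (TAATTA) were in 3.83% (3.51 to 4.18) against 3.17% and 3.11% (2.86 to 3.36). GATA letters, read by mesoderm and endoderm factors, were in 14.0% (13.4 to 14.6) against 15.3% and 14.7% (14.2 to 15.2), with overlapping intervals over all members. Of strong members 19.5% (14.5 to 25.7) held them, against 6.96% (6.58 to 7.36) of shared regions within joint rank 20000, which often lie at starts. Away from starts the gap was smaller, at 19.9% and 13.3%. Without windows that are mostly repeat the intervals overlapped, at 16.5% (11.3 to 23.6) and 12.6% (11.5 to 13.7). The core letters of CTCF were in 3.16% of all regions, 3.04% (2.75 to 3.35) of members and 4.44% (4.17 to 4.72) of weighted shared regions, and in 1 strong member. MESP letters (CATATG) were in 3.89% (3.56 to 4.24) of members, against 3.35% of all regions and 3.19% (2.92 to 3.45) of weighted shared regions. Intervals of weighted regions missing from SOX2-OFF alone overlapped the members' for ZIC (11.2%, 10.3 to 12.1) and homeobox letters (3.14%, 2.58 to 3.7045). They also did for MESP (3.14%, 2.63 to 3.65) and CTCF (3.16%, 2.61 to 3.72). For MEIS the overlap was with weighted regions missing from CEpiLC alone (15.998%, 15.2 to 16.8). The other pair class lay apart from members in each case, so none of these letters set members apart from both. For the remaining 10 motifs the intervals of members and weighted shared regions overlapped. The nearest to a difference was AP-1 (TGANTCA), at 7.62% (7.17 to 8.10) against 6.82% (6.44 to 7.20), with 6.58% of all regions. The others were OCT (ATGCAAAT, 1.33% of all regions), FOXH1 (1.54%), FOX (TGTTTAC, 2.64%), OTX/GSC (TAATCC, 5.54%), HOX-PBX (TGATTNAT, 1.82%), E-box (CAGGTG, 18.5%), TEAD (CATTCCA, 3.29%), KLF (CCACACCC, 2.33%) and ESRRB (AAGGTCA, 3.94%). A match describes letters in the reference and not a bound site, and 20 motifs were compared.

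At the genes that the study follows, the promoters themselves were not members. At 8 of 8 loci (T, Tbx6, Msgn1, Cdx2, Meis3, Nodal, Otx2 and Pax3) the region over the gene's start was held by all 3 lists. The members there are other regions within 50 kb, some of them at other annotated starts, and their role was not tested. At T, on chromosome 17, 3 of 21 regions were members. The strongest spans chr17:8396021-8399018, 35.4 kb upstream of T over a start and exon of the neighbouring gene T2. It had a fold enrichment of 2.29 in SOX2-OFF and 2.09 in CEpiLC, a joint rank of 18204, and no SOX2-ON peak within 5.10 kb. A second overlapped exon and untranslated sequence of T itself (chr17:8441204-8444843, fold 1.57 and 1.64) and the last lay 19.03 kb downstream (1.75 and 1.79).

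Tbx6, the T-box factor of the presomitic mesoderm, held its strongest member within the gene. It spans chr7:126784713-126785663, over an exon and untranslated region, with a fold enrichment of 1.97 in SOX2-OFF and 1.78 in CEpiLC, a joint rank of 16862 and 3.53 kb to the nearest SOX2-ON peak. Beyond it, 2 weaker members lay 32.5 kb upstream and 28.4 kb downstream, both within 1 kb of another annotated start. Msgn1, a bHLH factor of the same tissue, had 1 member, 15.4 kb upstream (1.75 and 1.96). Cdx2, a caudal homeobox factor, had 2, 12.4 kb upstream in an intron of Urad (1.66 and 1.63) and 36.4 kb downstream (1.61 and 1.70). Nodal, a ligand of the streak, had 5, with fold values from 1.45 to 1.85 in SOX2-OFF, of which 3 lay in introns or exons of Eif4ebp2. Meis3, a HOX cofactor, had 1, which held TCF/LEF and MEIS letters (1.78 and 1.60). Otx2, an anterior homeobox factor, had 1 at 5.19 kb downstream, within 1 kb of another annotated start (1.63 and 2.01). Pax3, a neural and somite factor, had 1 in an intron (1.85 and 1.96).

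**Figure D5:**
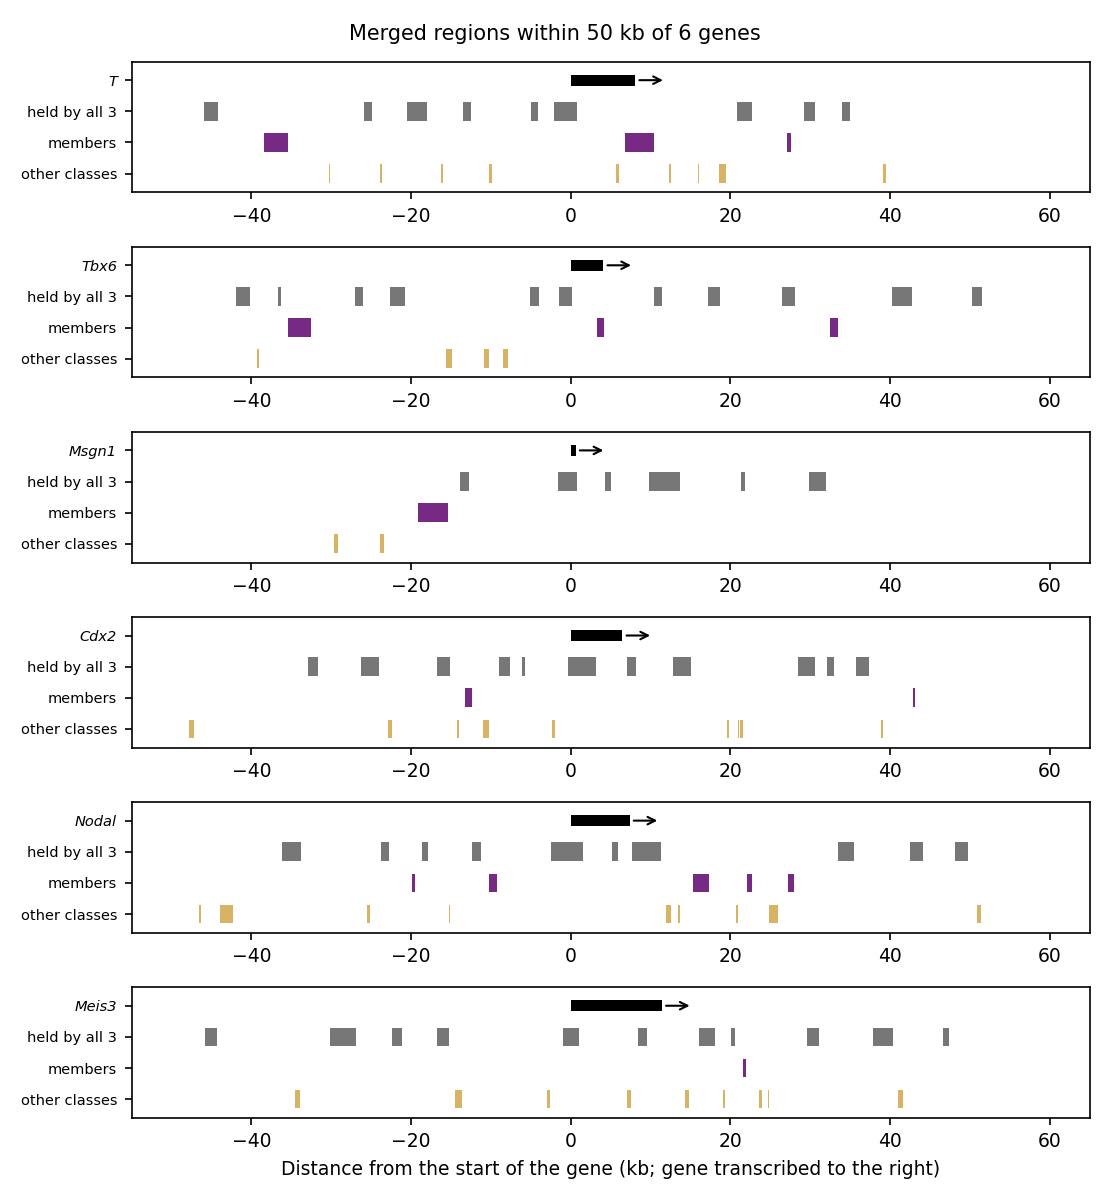
Merged regions within 50 kb of T, Tbx6, Msgn1, Cdx2, Nodal and Meis3, placed by distance from the start of each gene (kb, x axis), with separate lines for regions held by all 3 lists, members and the other classes. Members lie off the starts of these genes, and the start of each gene lies in a region held by all 3 lists.

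Members of any strength were common at coding genes, and strong ones were rare. On the 16 chromosomes 63.7% of 16993 coding genes had at least 1 member in the gene or within 50 kb, and 1.49% had a strong member. Of 23 streak and caudal genes 18 had a member (78.3%, 58.1 to 90.3), an interval that includes the background, and 3 had a strong one (13.0%, 4.54 to 32.1): T, Mesp1 and Mesp2. Mesp1 and Mesp2, bHLH factors of early mesoderm, share a single region on chromosome 7, 2.31 kb downstream of Mesp1, with a fold of 1.90 in SOX2-OFF and 2.07 in CEpiLC. Nkx1-2, Wnt8a, Eomes, Lefty1 and Tdgf1 had none. Of 18 paraxial mesoderm genes 14 had a member (77.8%, 54.8 to 91.0), and Tbx6 and Rspo3 had a strong one (11.1%, 3.10 to 32.8). The Rspo3 member, 18.2 kb upstream, was 1 of 7 regions there, and its fold was 2.46 and 2.22. Fgf8 had a member 0.909 kb downstream (1.64 and 1.84), Snai1, a repressor of epithelial genes, 0.211 kb downstream (1.89 and 1.68), and Epha4 in an intron (2.53 and 2.10), with joint ranks of 23167, 23690 and 21765, just past the limit.

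Among WNT pathway targets 9 of 13 had a member (69.2%, 42.4 to 87.3), and 3 had a strong one (23.1%, 8.18 to 50.3). These were Tcf7l2 in an intron (2.92 and 2.06), Fzd10, a WNT receptor, 3.52 kb upstream over an exon of Gm42498 (1.66 and 1.82), and Rspo3. Lef1, the partner of β-catenin, had 12 members among 55 regions, none strong. Of anterior epiblast and neural genes 8 of 13 had a member (61.5%, 35.5 to 82.3). Hesx1 and Pou3f1, a POU factor, had a strong one (15.4% of the list, 4.33 to 42.2), 37.1 and 24.7 kb upstream, both with windows mostly of repeats (72.0% and 70.5%). Of epithelial to mesenchymal transition genes 7 of 9 had a member, and Cdh2, N-cadherin, had 7 among 26 regions with 1 strong one in an intron (2.38 and 2.14). These strong shares lie above the 1.49% of all coding genes, but each rests on at most 3 genes, neighbouring genes share regions, and the lists were chosen with earlier results known. The share of members among regions in a list's windows ran from 5.13% (2.62 to 9.79) for trophectoderm and primitive endoderm genes, and 6.70% (3.96 to 11.1) for anterior and neural genes, through 10.3% (7.79 to 13.4) for streak and caudal genes and 10.8% (7.30 to 15.7) for naive pluripotency genes, to 13.8% (9.26 to 19.9) for epithelial to mesenchymal transition genes. Of the 9 lists the last interval alone lay above the 8.66% of all regions, and it rests on Cdh2: without that gene, a comparison added after seeing the data, the share was 11.2% (6.90 to 17.6), 15 of 134 regions.

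In the other lists no gene had a strong member. Among trunk HOX genes and cofactors 15 of 16 had a member (93.75%, 71.7 to 98.9, above the 63.7% of coding genes), but 1 region served Hoxc4, Hoxc5, Hoxc6, Hoxc8, Hoxc9 and Hoxc10, so the genes are not independent. A member upstream of Hoxd1 held TCF/LEF letters. Of other mesoderm genes 11 of 14 had a member, among them Mef2c, a cardiac and muscle factor, with T-box, CDX/HOX and MEIS letters. Of naive pluripotency genes 6 of 9 had one, with 8 at Esrrb, an orphan nuclear receptor. The trophectoderm and primitive endoderm list, which stands for other cell types, had 6 of 10. Sox2 itself had 2 members, the better ranked of them 4.44 kb downstream and 0.300 kb from a SOX2-ON peak.

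Coding genes with the most strong members were long genes of the nervous system and others. Nrxn3, a neurexin, Tenm4, a teneurin, and Trabd2b, a protease that inactivates WNT proteins, had 2 strong members each, among 74, 108 and 40 regions. Each of these members lay inside the gene, in an intron except for 1 over an exon of Nrxn3. Their fold in SOX2-OFF ran from 2.00 to 3.80, the highest in Tenm4. The remaining genes of the first 10 had 1 each, among them Asb14, Appl1, Hesx1, R3hcc1l, Loxl4 and Sox4, of which Asb14, Appl1 and Hesx1 share a region, as do R3hcc1l and Loxl4.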

How the data were processed

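ATAC-seq was performed on 3 samples, 1 each of SOX2-ON, SOX2-OFF and CEpiLC, grouped by the labelled doxycycline treatment and genotype. Per the submitters' processing notes, the nf-core/atacseq pipeline was run (Trim Galore, then BWA on mm10), and MACS2 gave 1 list of broad peaks for each sample. Cut-site shifting by the caller is not given in the sources used here, so peak edges are approximate. In the lists the authors deposited, the fold enrichment of a peak is a ratio over the background of its own library. The deposited −log10 p and −log10 q come from the caller, and the deposited score, which restates the −log10 q, was not used. The lists held 129843 (SOX2-ON), 131520 (SOX2-OFF) and 130348 (CEpiLC) peaks, and 85388, 86563 and 95025 on the 16 chromosomes used. Read totals are not in them, so depth is unknown.

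Peaks were merged with bedtools 2.31.1. Ranks within a list are by −log10 p on the 16 chromosomes. Positions are from GENCODE M21 and sequences from RefSeq GRCm38.p6, the same build as mm10. Matches to 20 motifs, in either orientation, were sought in the middle 200 bp of the overlap of the SOX2-OFF and CEpiLC peaks. For regions of another pair of lists the overlap of that pair was used, and for regions of a single list its widest peak. Comparison classes were weighted to the members in 10 bins of GC content by 5 of joint rank. Shares carry Wilson 95% intervals (a stratified binomial interval where weighted). These are taken over regions or genes and cover counting error only, since each group has 1 library. With 1 sample per group no test was run. Code was tested on simulated data. Tools were Python 3.11.15, NumPy 2.4.6, pandas 2.3.3, SciPy 1.17.1 and Matplotlib 3.10.9. Named genes were the 10 members of best joint rank, up to 6 genes per list with a strong member, the 10 genes with most strong members and 8 loci of the study, of which some are not reported here. Others, named after their values were seen, are the genes beside members with TCF/LEF or T-box letters, the weaker members at Fgf8, Snai1, Epha4, Lef1, Mef2c, Esrrb, Sox2 and the Hox clusters. Members, motifs and gene lists were chosen with earlier results of these data known. Alternatives were a stricter q, all chromosomes, a larger overlap, distance from SOX2-ON peaks, rank limits, merge gap, window and promoter distance.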

Additional observations from a re-analysis of the deposited data

How the results depend on the processing

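No paired analysis was possible because the comparison rests on a single library per group. The count of members was 12480, 4233 when SOX2-OFF and CEpiLC peaks needed a −log10 q of 2, and 190 within a joint rank of 20000. It stayed within 1.5 times with all chromosomes, a larger overlap, no SOX2-ON peak within 1 kb or a merge gap of 500 bp (11166 to 15183). With the stricter q the promoter share was 11.01%, the share with a SOX2-ON peak within 1 kb 6.85%, T-box letters 4.70% and TCF/LEF letters 11.7%. Within joint rank 20000 these were 10.0%, 5.26%, 8.95% and 22.6%, CDX/HOX letters 6.32% and SOX letters 0%, and 3 streak and caudal genes had a member. Chosen after seeing the data, strong members away from starts gave 9.36% (T-box), 24.6% (TCF/LEF), 5.85% (CDX/HOX) and 0% (SOX), and those with windows not mostly of repeats 11.5%, 24.5%, 6.47% and 0%. Over the whole overlap of both peaks the shares were 7.54% (T-box), 17.1% (TCF/LEF), 12.8% (CDX/HOX) and 4.65% (SOX), since longer stretches were searched. Promoters within 5 kb made up 32.5%. With all chromosomes, 9.56% of members had a SOX2-ON peak within 1 kb and the share of strong regions missing from SOX2-ON was 0.384%, against 0.0559% within joint rank 10000 and 8.80% within 50000. The causes were not tested.

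A member is a region without a SOX2-ON call, not one shown to be closed. Weak members sit at the limit of the lists, single libraries give no spread between samples, and −log10 p depends on each library's depth, so the strong members and the counts by rank carry the firmer statements.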

Other observations

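Coding genes with the most members of any strength were large genes. Auts2 had 17 members among 109 regions, Macrod2 16 among 118, Farp1 16 among 72 and Rere 16 among 118. Tenm4, Ptprn2, Wdfy3 and Mcc had 14 each, among 108, 97, 90 and 85 regions. The gene model of Fgfr2, an FGF receptor, spans 2961 kb in the annotation and took in 42 members among 417 regions, 1 of them strong and in an intron. The median over coding genes was 1 member among 17 regions.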
